A study of Mus musculus with 28 samples.

Results

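The transcription factors described here are those that establish and maintain the gene program of hepatocytes. They were taken as a fixed list of 8 genes, namely Hnf4a, Foxa1, Foxa2, Foxa3, Onecut1, Cebpa, Cebpb and Prox1, of 18188 genes with a probe set of their own on the array, and all 15 probe sets that name 1 of them, of 45037 in all, were read. The lead probe set of a gene is the one with the highest mean over all 28 arrays. Liver RNA was taken from female mice of the C3H/HeN strain, 5 weeks old when they entered the study, and each mouse gave 1 array, so that p-values measure the spread between these mice. Wild-type mice (16 arrays, 4 per diet) and mice lacking the constitutive androstane receptor, CAR (12 arrays, 3 per diet), received a Lieber's liquid diet without ethanol (control), with ethanol (EtOH), with ethanol and ellagic acid (EA) or with ethanol and trans-resveratrol (RSV). Every diet was given freely for 1 week and then at 12 g per day for 4 weeks, with a polyphenol intake of about 50 mg per kg body weight per day. EA and RSV mice therefore carried the ethanol as well, and all ethanol diets were compared with the same control mice. The CAR-deficient mice were of the same strain.

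Hepatocyte identity rests on a small network of factors that bind each other's genes as well as the genes of liver function. Forkhead factors of the Foxa family open chromatin, the nuclear receptor HNF4A and the CCAAT/enhancer binding proteins activate genes of metabolism and of blood protein synthesis, and ONECUT1 and PROX1 adjust the output of the network, PROX1 mostly as a corepressor. Several of them also respond to hormones, to feeding and to injury.

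Values are log2 values from the Distribution Free Weighted (DFW) summary, which the authors made of the probes of each probe set. DFW rescales the spread of every probe set, so a difference below is one of DFW values and no calibrated fold change, and levels were compared neither between genes nor between genotypes. A probe set whose standard deviation over the arrays of a genotype was at most 0.01 is called compressed. This held for 85.3% of all probe sets in wild-type mice, while all 8 lead probe sets of the factors varied more. A difference was called at an adjusted p under 0.05 by limma, which was fitted to all 4 diets of a genotype with adjustment over all probe sets. The single probe set of the deleted gene, Nr1i3, lay between 8.96 and 10.10 in wild-type arrays and between 8.55 and 9.49 in CAR-deficient arrays. Its place relative to the deletion was not given in the sources used here, so it does not check the genotype. Of 6 hepatocyte markers measured, 4 were not compressed in wild-type mice, and the mean level of the 6 per wild-type array lay between 12.82 and 13.19. The 5 bile duct markers measured were all compressed, with mean levels of 6.53.

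In wild-type liver 2 of the 8 factors differed from the control diet, and they were the same ones in each of the 3 ethanol diets. Cebpb, a bZIP factor of the acute phase and of gluconeogenesis, rose by 0.65 (EtOH), 0.77 (EA) and 0.93 (RSV). Foxa3, a forkhead factor of adult liver, fell by 0.56, 0.61 and 0.81 on the log2 scale. Over the lead probe sets of all genes the calls made up 7.04% for EtOH, 18% for EA and 23.8% for RSV, and over those that were not compressed, as the 8 factors are, 18.4%, 43% and 45.3%. A count of 2 of 8 is thus near the background for EtOH and below the other two, and says nothing particular about the factors as a group. The median difference of the 8 factors was 0.14 for EtOH, 0.06 for EA and 0.09 for RSV, beside 3.44e-05, 4.47e-05 and 4.97e-05 over all lead probe sets. Only 3856 of the 18188 lead probe sets were not compressed, which keeps the medians over all of them very small. The median over those not compressed was not computed, so these values do not show a shift of the factors as a group. Hnf4a, Cebpa, Foxa1, Foxa2, Onecut1 and Prox1 gave no call, and no factor was called between any 2 ethanol diets, where 3.22% (EA against EtOH), 0.555% (RSV against EtOH) and 0.0165% (EA against RSV) of the lead probe sets were (10.3%, 2.05% and 0.0778% of those not compressed). At an unadjusted p under 0.05 by limma only Cebpb and Foxa3 differed between ethanol diets, for RSV against EtOH. The share of all lead probe sets at this unadjusted threshold was not counted. The rank product, the test of the study's methods, called 5 of the 8 factors with EtOH, 4 with EA and 6 with RSV against control at a false discovery rate (FDR) under 0.05, beside 38.6%, 58.9% and 54.1% of the lead probe sets not compressed. Added to Cebpb and Foxa3 were Onecut1 and Foxa2 in all 3 diets, Prox1 with EtOH and RSV and Foxa1 with RSV. Between ethanol diets it called 4 (EA against EtOH, background 38.8%), 4 (RSV against EtOH, 30.1%) and 5 (EA against RSV, 23.7%). The arrays of an ethanol diet and of control did not overlap for 2 of the 8 factors in each of the 3 diets, again Cebpb and Foxa3, beside 14.9%, 27.4% and 25.9% of all lead probe sets and 27.7%, 57.6% and 48.4% of those not compressed.

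The promoters of the factors that the results turn on are shown for orientation, as 250 bases upstream of the first listed start from RefSeq on build GRCm38.p6, written 5′ to 3′ on the strand of the gene. Cebpb and Foxa3 are shown because they changed, and Foxa2, Onecut1 and Prox1 because they varied together between mice. Capitals mark each match, on either strand, to 1 of 6 motifs searched: TGACG (part of a cAMP response element), TTGCNNAA (C/EBP), TGTTTAC (forkhead), ATTGAT (cut-homeobox), GTTAAT (homeobox) and TATAAA (core promoters).
Cebpb, chr2:167688665-167688914, plus strand: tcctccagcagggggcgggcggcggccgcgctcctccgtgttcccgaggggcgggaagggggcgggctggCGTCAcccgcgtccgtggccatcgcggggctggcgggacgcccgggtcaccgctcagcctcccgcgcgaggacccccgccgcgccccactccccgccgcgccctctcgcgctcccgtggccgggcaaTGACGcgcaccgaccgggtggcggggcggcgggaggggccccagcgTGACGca
Foxa3, chr7:19023540-19023789, minus strand: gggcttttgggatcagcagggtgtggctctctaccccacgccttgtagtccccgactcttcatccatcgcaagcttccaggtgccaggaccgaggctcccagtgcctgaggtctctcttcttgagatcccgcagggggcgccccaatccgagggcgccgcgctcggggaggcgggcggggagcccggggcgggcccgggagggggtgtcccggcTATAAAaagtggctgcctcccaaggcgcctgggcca
Foxa2, chr2:148046970-148047219, minus strand: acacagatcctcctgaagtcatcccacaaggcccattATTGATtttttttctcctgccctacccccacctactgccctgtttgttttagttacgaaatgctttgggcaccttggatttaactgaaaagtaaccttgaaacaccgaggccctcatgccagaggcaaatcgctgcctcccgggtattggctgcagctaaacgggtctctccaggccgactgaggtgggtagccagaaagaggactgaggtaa
Onecut1, chr9:74861671-74861920, plus strand: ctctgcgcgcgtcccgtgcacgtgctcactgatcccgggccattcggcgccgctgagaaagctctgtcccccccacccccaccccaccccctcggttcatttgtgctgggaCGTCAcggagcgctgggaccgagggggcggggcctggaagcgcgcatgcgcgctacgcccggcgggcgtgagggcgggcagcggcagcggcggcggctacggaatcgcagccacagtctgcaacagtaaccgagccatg
Prox1, chr1:190170828-190171077, minus strand: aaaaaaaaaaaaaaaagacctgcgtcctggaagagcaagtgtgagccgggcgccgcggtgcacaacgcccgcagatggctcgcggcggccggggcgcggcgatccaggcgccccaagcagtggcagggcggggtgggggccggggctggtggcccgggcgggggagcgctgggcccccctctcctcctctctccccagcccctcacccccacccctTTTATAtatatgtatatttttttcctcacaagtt

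The Cebpb promoter holds 3 matches to TGACG and that of Onecut1 holds 1, and 17.8% of 32851 mouse promoters of this length hold at least 1. The Foxa3 and Prox1 promoters hold TATAAA, as do those of Cebpa and of another start of Foxa2 and 12.4% of all. ATTGAT, which occurs in 6.72% of promoters, is present in the Foxa2 sequence shown and in that of Hnf4a. TGTTTAC was found upstream of Foxa1 alone among the factors (3.17% of all promoters), GTTAAT upstream of other starts of Foxa2 and Hnf4a (6.43%), and TTGCNNAA upstream of none (9.56%). The Cebpb window has a GC content of 81.6% and that of Foxa3 68.8%, beside a median of 52.4% for all promoters. These are matches of letters only.

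**Figure D1:**
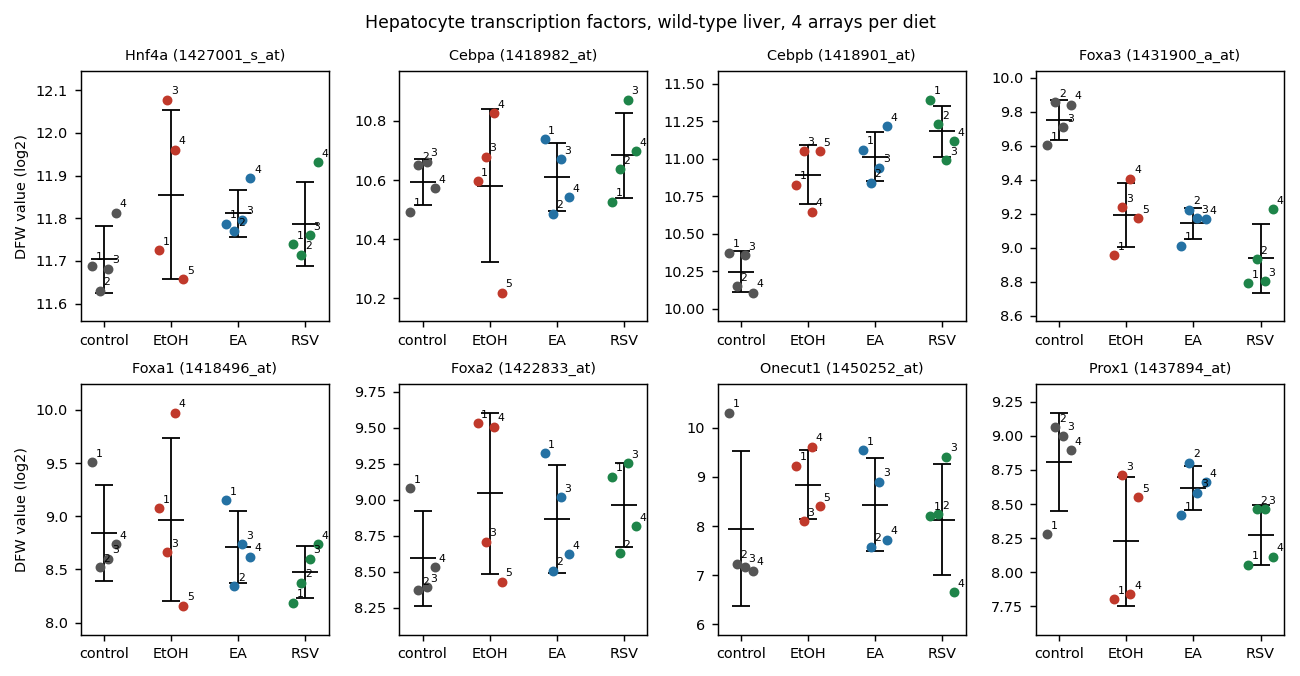
Level of the lead probe set of each factor in wild-type liver (DFW value, log2, vertical axis, own scale per gene) by diet, 1 point per array with its replicate number, with the mean and SD of 4 arrays as bars. Cebpb arrays of all ethanol diets sit above the control arrays (10.11 to 10.37) and Foxa3 arrays below them (9.60 to 9.85), while control replicate 1 of Onecut1 stands at 10.31.

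In the control diet the Cebpb lead probe set (1418901_at) read 10.37, 10.15, 10.36 and 10.11 in replicates 1 to 4. With EtOH it read 10.83, 11.05, 10.65 and 11.05 in replicates 1, 3, 4 and 5. The lowest EtOH array was thus above the highest control array. With EA the values were 11.06, 10.84, 10.94 and 11.21, and with RSV 11.39, 11.23, 10.99 and 11.12, again without overlap with control. The differences were 0.65 ± 0.12 (SE, adjusted p = 0.00948 by limma, n = 4 and 4) for EtOH, 0.77 ± 0.12 (adjusted p = 0.0013 by limma) for EA and 0.93 ± 0.12 (adjusted p = 0.000451 by limma) for RSV. The means stood in the order RSV, EA, EtOH, control, but neighbours among the ethanol diets overlapped. RSV exceeded EtOH by 0.29, with a 95% interval of 0.035 to 0.54 and an adjusted p of 0.277 by limma, and EA exceeded EtOH by 0.12 (interval -0.13 to 0.37). The second probe set of Cebpb (1427844_a_at) gave 0.51, 0.66 and 0.77 against control, each past the threshold, and followed the first over the 16 arrays with Pearson's r = 0.991, as a description of 2 probe sets on the same RNA.

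Foxa3, a forkhead factor that binds liver enhancers alongside its relatives, has 1 probe set (1431900_a_at). It read 9.60, 9.85, 9.71 and 9.84 on the control diet and 8.96, 9.24, 9.41 and 9.17 (replicates 1, 3, 4 and 5) with EtOH. EA mice gave 9.01, 9.22, 9.17 and 9.17, and RSV mice 8.79, 8.93, 8.80 and 9.23. None of the 12 ethanol arrays reached the lowest control array. The difference from control was -0.56 ± 0.11 (SE, adjusted p = 0.0133 by limma, n = 4 and 4) for EtOH, -0.61 ± 0.11 (adjusted p = 0.00328) for EA and -0.81 ± 0.11 (adjusted p = 0.000669) for RSV. RSV lay below EtOH by -0.25 (interval -0.49 to -0.018, adjusted p = 0.303 by limma), so the order of the ethanol diets was not resolved. Because whole liver was hybridized, fewer cells of a type and less RNA per cell cannot be told apart for any gene here.

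Both EtOH calls were lost when only the 8 arrays of the 2 diets were fitted (adjusted p = 0.0613 for Cebpb and 0.0683 for Foxa3 by limma), with the same differences. With the replicate number as a block, Cebpb with EtOH gave 0.57 (adjusted p = 0.0564) and Foxa3 stayed called, although the numbers of control and EtOH arrays did not prove to pair them. Leaving out in turn each of the 8 arrays of the 2 diets compared kept all 6 calls of the 2 genes, with differences of 0.593 to 0.729 for Cebpb and -0.629 to -0.478 for Foxa3 under EtOH.

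Of 11 Kupffer cell markers, which mark the resident macrophages of the liver, 8 were lower than control with EtOH, 9 with EA and 9 with RSV, and none was higher. The shares called were 7.04%, 18% and 23.8% of all lead probe sets and 18.4%, 43% and 45.3% of those not compressed. Of the 6 hepatocyte markers 1 was lower with EtOH, 2 were lower with EA, and 1 was higher and 1 lower with RSV. The mean level of the Kupffer cell markers per array was 8.62 to 8.74 on control, 8.44 to 8.56 with EtOH, 8.45 to 8.49 with EA and 8.42 to 8.55 with RSV. Adgre1, which encodes a surface protein of tissue macrophages, differed by -0.44, -0.56 and -0.56. The median difference of the list was -0.22, -0.23 and -0.25. Timd4, Marco and Cd68 of the list were compressed, and of the calls those of Timd4 in each diet and Cd68 with RSV were differences of this small size (-0.000312 for Timd4 with EtOH). The part of these cells in the change of Cebpb and Foxa3 was not tested.

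**Figure D2:**
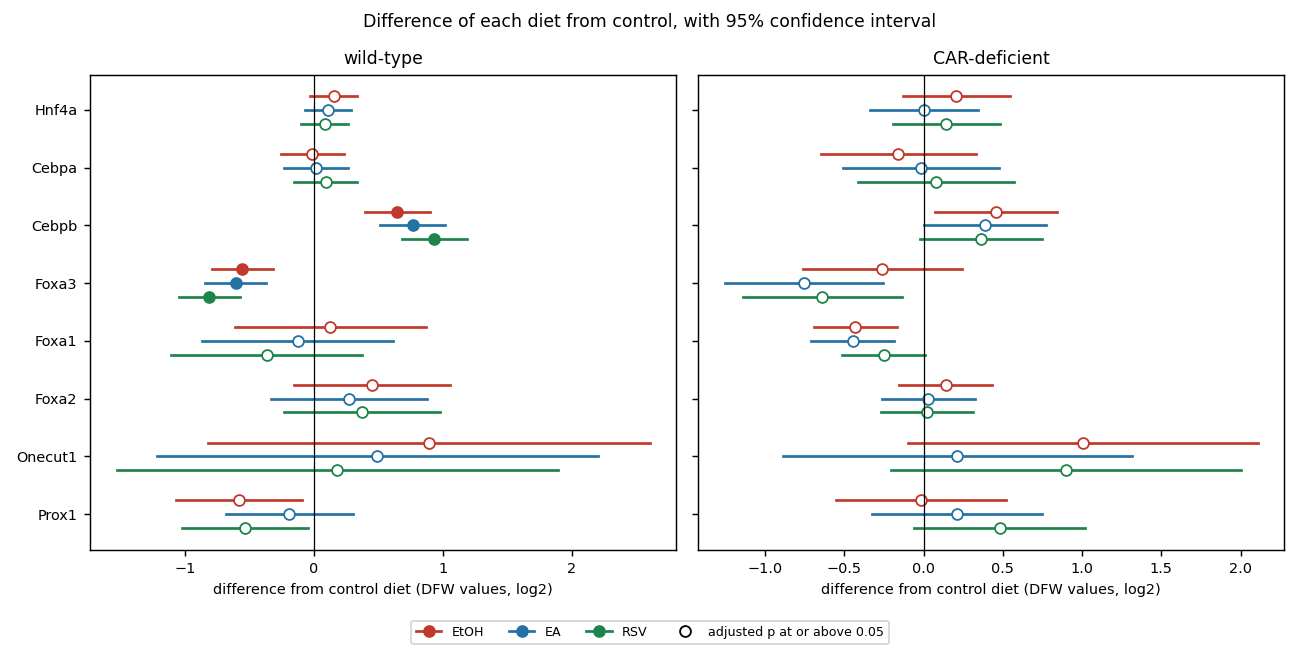
Difference of each ethanol diet from control for the lead probe set of each factor (DFW values, log2, horizontal axis) with its 95% confidence interval from limma, wild-type on the left and CAR-deficient on the right, with separate scales. Filled points have an adjusted p under 0.05, which holds for Cebpb and Foxa3 in wild-type mice only, and the intervals of Onecut1 are the widest.

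Hnf4a and Cebpa, regulators of mature hepatocytes, were called on no ethanol diet. Hnf4a, the nuclear receptor at the centre of the network, read 11.69, 11.63, 11.68 and 11.81 on the control diet with its lead probe set (1427001_s_at), and 11.73, 12.08, 11.96 and 11.66 with EtOH. EA arrays lay between 11.77 and 11.89 and RSV arrays between 11.71 and 11.93. The differences from control were 0.15 (interval -0.029 to 0.33), 0.11 (-0.073 to 0.29) and 0.08 (-0.098 to 0.26), none past the threshold, and EtOH replicates 3 and 4 were the highest of all 16 arrays. The other probe sets of Hnf4a did not all give the same size: 1427000_at was 0.47 higher with EA than with control, without overlap (9.95 to 10.15 against 9.33 to 9.92, adjusted p = 0.0863 by limma), and 1421983_s_at 0.13 higher. The compressed probe set 1450447_at was called with EtOH (adjusted p = 0.041) and EA (adjusted p = 0.0309) at differences of only 0.000211 and 0.000194. Over the wild-type arrays 1427000_at followed the lead with r = 0.774, 1421983_s_at with 0.897 and 1450447_at with 0.655.

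Cebpa, the bZIP factor of differentiated hepatocytes and the relative of Cebpb, has 1 probe set (1418982_at). Its control values were 10.49, 10.65, 10.66 and 10.57, its EtOH values 10.60, 10.68, 10.83 and 10.22, and its EA and RSV values lay between 10.49 and 10.74 and between 10.53 and 10.87. The lowest value of all was EtOH replicate 5. The differences from control were -0.014, 0.015 and 0.089, with intervals within -0.26 and 0.34.

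Foxa1 and Foxa2, the pioneer factors that act redundantly in liver development, varied widely between mice of 1 diet. Foxa1 (1418496_at) read 9.51, 8.52, 8.60 and 8.74 on the control diet and 9.08, 8.66, 9.97 and 8.16 with EtOH, so that EtOH held both the highest and the lowest of the 16 arrays. With EA it read 9.15, 8.34, 8.74 and 8.62, and with RSV 8.19, 8.38, 8.60 and 8.74. The differences from control were 0.13 (interval -0.61 to 0.87), -0.13 (-0.87 to 0.61) and -0.37 (-1.11 to 0.37), which leaves room for sizable changes either way. Foxa2 (1422833_at) read 9.08, 8.37, 8.39 and 8.53 on control, 9.53, 8.71, 9.51 and 8.43 with EtOH, 9.32, 8.51, 9.02 and 8.62 with EA and 9.16, 8.63, 9.26 and 8.82 with RSV. All 3 ethanol means were above control, by 0.45, 0.27 and 0.37, but all groups overlapped and the lowest adjusted p was 0.369 by limma.

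Onecut1, also known as HNF6, a cut-homeobox factor of hepatocytes and bile ducts, had a pooled standard deviation within diets of 1.14, the largest of the 8 lead probe sets. On the control diet the lead probe set (1450252_at) read 10.31 in replicate 1 and 7.23, 7.16 and 7.09 in replicates 2 to 4. The EtOH arrays read 9.23, 8.10, 9.62 and 8.40, the EA arrays 9.55, 7.58, 8.90 and 7.72 and the RSV arrays 8.21, 8.24, 9.42 and 6.65. Apart from control replicate 1, every EtOH and EA array was above every control array. The second probe set (1421447_at) gave the same picture, with 9.32 in control replicate 1 and 6.72 to 6.86 in the others, and followed the lead with r = 0.996. The differences from control were 0.89 (interval -0.82 to 2.6), 0.49 (-1.22 to 2.2) and 0.18 (-1.53 to 1.89). Without control replicate 1 they became 1.68 (adjusted p = 0.164 by limma), 1.28 (adjusted p = 0.226) and 0.97 (adjusted p = 0.32), still not called by limma. The rank product called Onecut1 higher than control with EtOH (FDR of 0), EA (FDR of 0.000483) and RSV (FDR of 0.00521). It called Onecut1 lower with EA (-0.40, FDR of 0.0034) and RSV (-0.71, FDR of 0.00135) than with EtOH. EA against RSV was called too (0.31, FDR of 0.00372), so every wild-type pair of diets was. The null of this test shuffles values across probe sets, most of them compressed, and does not use the spread of a probe set within a diet. These calls alone do not separate a difference between diets from the wide spread of Onecut1 between mice.

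Prox1, a homeobox factor that represses bile acid synthesis and other targets of HNF4A in hepatocytes and also marks lymphatic endothelium, had a lower mean on every ethanol diet, without a call. Its lead probe set (1437894_at) read 8.28, 9.06, 8.999 and 8.90 on control, 7.80, 8.71, 7.84 and 8.55 with EtOH, 8.42, 8.80, 8.58 and 8.66 with EA and 8.06, 8.46, 8.46 and 8.12 with RSV. Control replicate 1, the array of high Onecut1, was the lowest control array, and the other 3 control arrays lay above all 12 ethanol arrays. The differences from control were -0.58 ± 0.23 (SE, adjusted p = 0.159 by limma), -0.19 ± 0.23 (adjusted p = 0.628) and -0.53 ± 0.23 (adjusted p = 0.115). Without control replicate 1 the RSV difference was -0.71 and passed the threshold (adjusted p = 0.0436 by limma), and it also passed with a replicate block (adjusted p = 0.0343). The probe set 1457432_at differed from control by -0.25, -0.08 and -0.27 without passing and followed the lead with r = 0.972, and 1421336_at was compressed. Of 4 lymphatic endothelium markers measured, only 2 were not compressed in wild-type mice, and Pdpn was among the compressed ones. Lyve1 alone was called, 0.71 higher with EA, where 18% of all lead probe sets and 43% of those not compressed were called.

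Single mice of the same diet departed from its mean in several of these factors at once. To describe this, the mean of its diet was taken from each value, which removes every diet effect, and the deviations of the 8 lead probe sets were correlated over the arrays of a genotype in 28 pairs. In wild-type mice Foxa2 rose with Onecut1 (Pearson's r = 0.77, exact permutation p = 0.00137, adjusted over the 28 pairs 0.0384, n = 16) and with Foxa1 (r = 0.80, exact permutation p = 0.00286, adjusted 0.04). Prox1 ran the other way, with r = -0.83 against Foxa2 (exact permutation p = 0.00456, adjusted 0.0426, n = 16). Values were permuted within diets, two-sided, over 331776 arrangements. This treats the mice of a diet as exchangeable and takes no account of the replicate number, which is described below. Spearman's rho was 0.63 (exact permutation p = 0.00994, adjusted 0.0696), 0.79 (p = 0.00468, adjusted 0.0655) and -0.84 (p = 0.00103, adjusted 0.0289), so that the first 2 relations did not pass by rank. Without the 2 arrays farthest from the median of the first gene named in a pair, in the order Foxa2 and Onecut1, Foxa1 and Foxa2, Foxa2 and Prox1, r was 0.81, 0.75 and -0.67. Foxa1 and Prox1 (r = -0.76, adjusted exact permutation p = 0.0646) and Foxa1 and Onecut1 (r = 0.61, adjusted 0.0646) did not pass, and Foxa3, Cebpa, Cebpb and Hnf4a were in no pair that passed.

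The mice that carried this pattern most clearly were control replicate 1, EtOH replicates 1 and 4 and EA replicate 1, with high Onecut1, Foxa2 and Foxa1 and low Prox1. Control replicate 1 deviated from its diet mean by 2.36 for Onecut1, 0.48 for Foxa2, 0.66 for Foxa1 and -0.53 for Prox1. EtOH replicate 4 deviated by 0.78, 0.46, 1.00 and -0.38, and EA replicate 1 by 1.11, 0.46, 0.44 and -0.20. RSV replicate 3 followed the pattern for Onecut1 (1.29), Foxa2 (0.29) and Foxa1 (0.13) but not for Prox1 (0.19), and RSV replicate 4 had the lowest Onecut1 deviation (-1.48) with a Foxa1 deviation of 0.26. EtOH replicates 3 and 5 lay at the opposite end, with Foxa2 deviations of -0.33 and -0.61 and Prox1 deviations of 0.48 and 0.32. In wild-type mice the deviations also followed the replicate number for 1 and 2. In replicate 1 of all 4 diets Foxa2 was above its diet mean (0.19 to 0.49) and Prox1 below (-0.53 to -0.20). In replicate 2 of control, EA and RSV Foxa2 was below (-0.36 to -0.22) and Prox1 above (0.19 to 0.25). Signs of Foxa2 were mixed in replicate 3 (-0.33 to 0.29) and replicate 4 (-0.24 to 0.46). With the replicate number removed as well and values permuted within replicate numbers, a setting chosen after seeing the data in which exchange is only approximate, r was 0.80 for Foxa2 and Onecut1 (permutation p = 0.00386, adjusted 0.027, n = 16) and 0.79 for Foxa1 and Foxa2 (permutation p = 0.00101, adjusted 0.0151). In this setting EtOH replicate 5, the only array of its number, kept no deviation and so added nothing to any r. Foxa2 and Prox1 no longer passed (r = -0.71, permutation p = 0.0267, adjusted 0.0934). Foxa1 and Onecut1 now did (r = 0.85, adjusted permutation p = 0.0151), and so did Foxa2 and Cebpa (r = 0.70, adjusted permutation p = 0.0151). What the replicate number stands for was not given in the sources used here, and its part in these relations was not tested further.

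**Figure D3:**
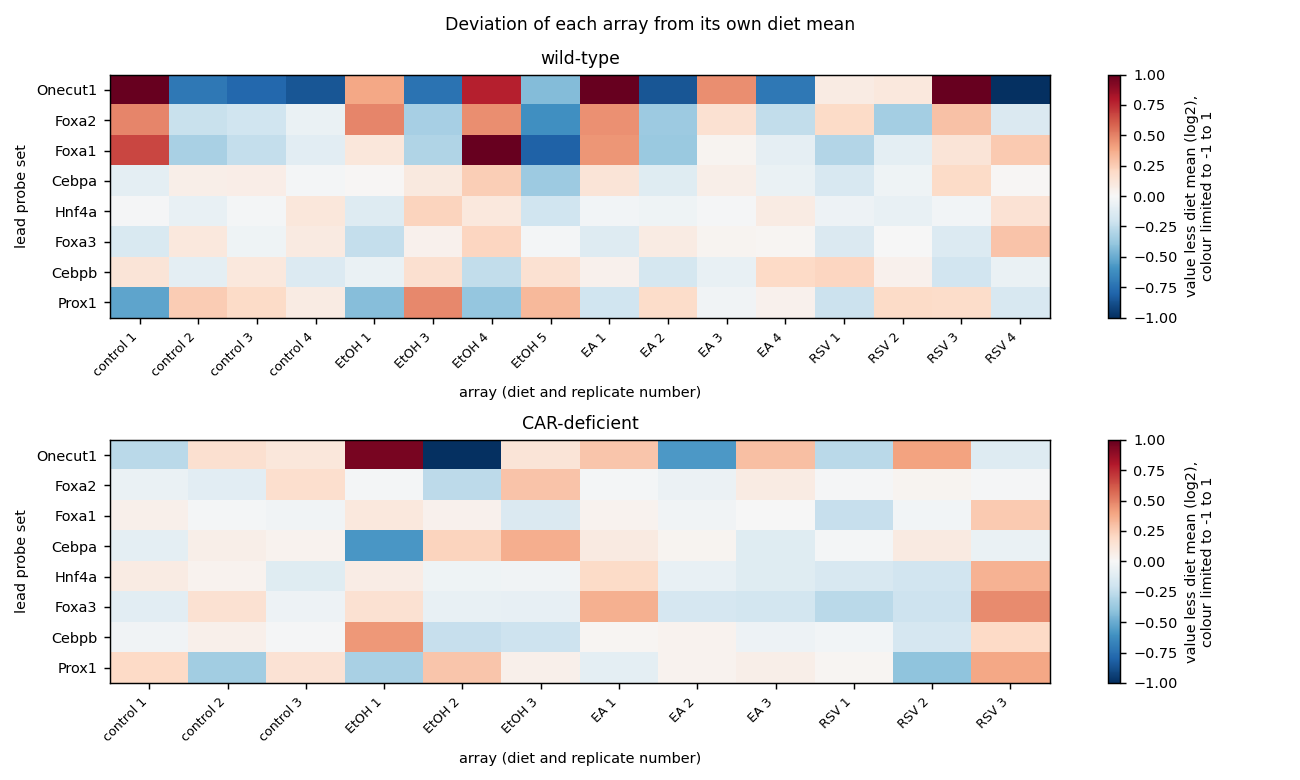
Deviation of each array from the mean of its own diet (colour, log2, limited to -1 to 1) for the lead probe set of each factor (rows) in wild-type arrays (top) and CAR-deficient arrays (bottom). In wild-type mice control replicate 1, EtOH replicates 1 and 4 and EA replicate 1 show red Onecut1, Foxa2 and Foxa1 with blue Prox1, whereas RSV replicate 3 shows all 4 in red.

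**Figure D4:**
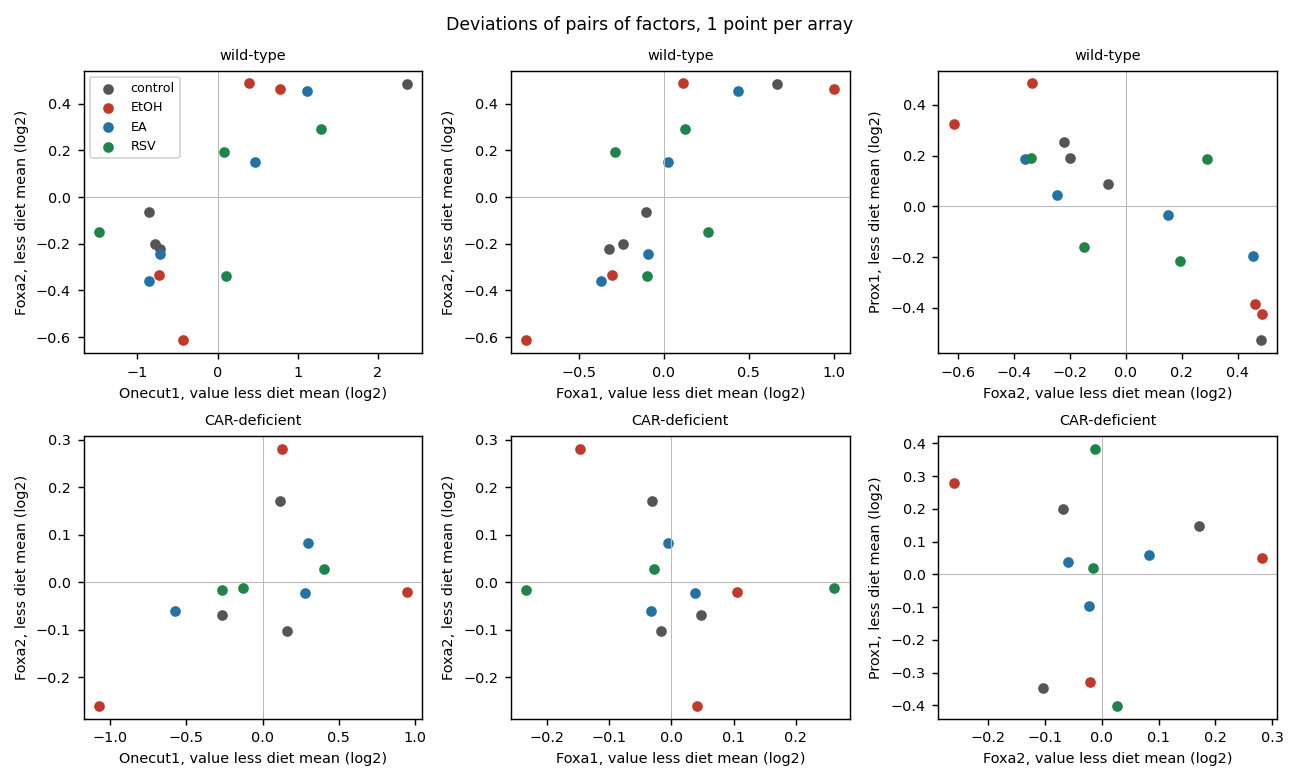
Deviations from the diet mean (log2) of Foxa2 (vertical) against Onecut1 (horizontal), of Foxa2 against Foxa1 and of Prox1 against Foxa2, 1 point per array and 1 colour per diet, wild-type above (r = 0.77, 0.80 and -0.83, n = 16) and CAR-deficient below (r = 0.50, -0.33 and -0.04, n = 12). The 3 wild-type relations passed after adjustment by Pearson's r, and none of the CAR-deficient ones did. With the replicate number removed, the wild-type relation of Foxa2 and Prox1 did not pass.

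In CAR-deficient mice no pair of factors passed (lowest adjusted exact permutation p = 0.169, n = 12, over 1296 arrangements). Foxa2 and Onecut1 gave r = 0.50, Foxa1 and Foxa2 -0.33 and Foxa2 and Prox1 -0.04. Onecut1 and Prox1 ran against each other with r = -0.66 (exact permutation p = 0.0301, adjusted 0.169; rho = -0.61, exact permutation p = 0.0733). With the replicate number removed, Onecut1 and Prox1 (r = -0.95, adjusted permutation p = 0.0122) and Hnf4a and Foxa3 (r = 0.92, adjusted permutation p = 0.0132) passed in these mice. Whether the genotypes differ in these correlations was not tested.

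Over the 16 wild-type arrays, diet effects included, the genes whose level ran most like that of a factor were looked up among 3856 lead probe sets that were not compressed, and r over the 12 CAR-deficient arrays is given in brackets. Onecut1 was followed by B4galt1, a galactosyltransferase, with r = 0.92 (0.78), by Cish, a suppressor of cytokine signalling induced by growth hormone through STAT5, with 0.88 (0.79), and by Wdr45b with 0.85 (0.53). Foxa2 was followed by Rgs3 with 0.96 (0.47), by Cish again with 0.90 (0.58) and by Phlda1 with 0.89 (0.44). Foxa1 was followed by Foxq1, another forkhead gene, with 0.87 (0.42), Resf1 with 0.87 (0.23) and Atxn7l1 with 0.82 (-0.74). Prox1 was followed by Snrk with 0.88 (0.29), Dnajc11 with 0.85 (-0.15) and Zfp672 with 0.85 (0.30). For Cebpb these were Slc2a1, the glucose transporter GLUT1, with 0.96 (0.72), Slc13a3 with 0.95 (0.52) and Fbxo36 with 0.95 (0.63), and for Foxa3 they were 0610040J01Rik with 0.94 (0.43), Mtmr10 with 0.94 (0.16) and Slc66a2 with 0.93 (0.32). For Hnf4a they were Cnn3 with 0.93 (0.17), Ikbkg with 0.89 (0.02) and Txnrd1 with 0.86 (0.53), and for Cebpa they were Atxn2 with 0.75 (0.57), Slc30a1 with 0.73 (-0.27) and C77080 with 0.72 (0.63). Rgs3, Atxn7l1, Mtmr10, Fbxo36 and Dnajc11 were compressed in CAR-deficient arrays. The wild-type values are the highest of many and are given as a description, and 3 of the 24 had the opposite sign in CAR-deficient arrays.

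In CAR-deficient liver none of the 8 factors was called in any comparison of diets, where 0.434% (EtOH), 0.242% (EA) and 0.0715% (RSV) of all lead probe sets were called against control (1.02%, 0.599% and 0.213% of those not compressed). Between ethanol diets limma called 0% of the lead probe sets in these mice. The lead probe set of no factor had an unadjusted p under 0.05 in any of these 3 pairs. Among the lead probe sets, Foxa3 lay lower with EA (9.62 to 10.16) than with EtOH (10.22 to 10.45), without overlap. Onecut1 likewise lay lower with EA (7.42 to 8.29) than with RSV (8.41 to 9.08). A further probe set of Hnf4a, 1421983_s_at, lay lower with EA (9.04 to 9.43) than with EtOH (9.55 to 9.78) and RSV (9.44 to 9.70), without overlap. The share of all lead probe sets without overlap was not counted between ethanol diets, so no background stands beside these 3 genes. The rank product called 2 of 8 for each ethanol diet against control in these mice, beside 9.68% (EtOH), 13.8% (EA) and 10.4% (RSV) of the lead probe sets not compressed. These were Foxa1 and Onecut1 with EtOH, Foxa1 and Foxa3 with EA and Onecut1 and Foxa3 with RSV. It called 0 for EA against EtOH (background 3.07%), 0 for RSV against EtOH (1.22%) and 1, Onecut1, for EA against RSV (0.502%). Lead probe sets were also read at an unadjusted p under 0.05 by limma against control. Those of Cebpb and Foxa1 passed with EtOH, of Cebpb, Foxa1 and Foxa3 with EA and of Foxa3 with RSV. The share of all lead probe sets at this unadjusted threshold was not counted, so no background stands beside these. The arrays did not overlap with control for 4 of the 8 factors with EtOH, 3 with EA and 3 with RSV, beside 20.6%, 23.9% and 18.4% of all lead probe sets and 27.4%, 37.1% and 28.4% of those not compressed.

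**Figure D5:**
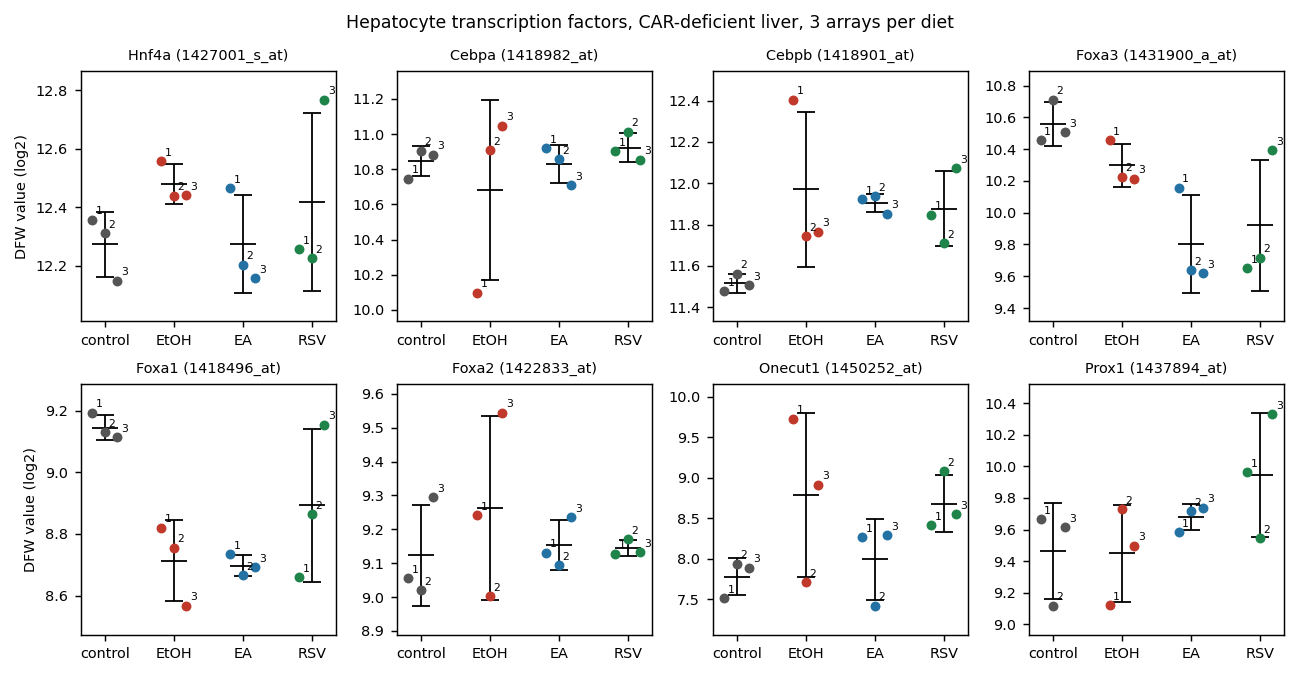
Level of the lead probe set of each factor in CAR-deficient liver (DFW value, log2, vertical axis, own scale per gene) by diet, 1 point per array with its replicate number, with the mean and SD of 3 arrays as bars. Cebpb arrays of the ethanol diets lie above control (11.48 to 11.56), Foxa3 arrays below (10.46 to 10.71), and EtOH replicate 1 is lowest for Cebpa and highest for Cebpb and Onecut1.

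Cebpb read 11.48, 11.56 and 11.51 in CAR-deficient control mice and 12.40, 11.74 and 11.76 with EtOH. It read 11.92, 11.94 and 11.85 with EA and 11.85, 11.71 and 12.07 with RSV, so that every ethanol array lay above every control array. The differences were 0.46 ± 0.17 (SE, adjusted p = 0.325 by limma, n = 3 and 3), 0.39 ± 0.17 (adjusted p = 0.423) and 0.36 ± 0.17 (adjusted p = 0.519). Without EtOH replicate 1 the EtOH difference was 0.24. The second probe set gave 0.48, 0.27 and 0.34, also without overlap.

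Foxa3 read 10.46, 10.71 and 10.51 on the control diet of these mice and 10.45, 10.23 and 10.22 with EtOH, where 1 array all but touched the lowest control array. EA arrays read 10.16, 9.64 and 9.62, and RSV arrays 9.65, 9.72 and 10.39. The differences were -0.26 ± 0.22 (SE, adjusted p = 0.705 by limma), -0.75 ± 0.22 (adjusted p = 0.222) and -0.64 ± 0.22 (adjusted p = 0.351). Both genes thus had the sign seen in wild-type mice in all 3 diets. The 2 genotypes were summarised on scales of their own, and whether the diet effect differs between them was not tested.

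Foxa1 had a tight control group here, unlike in wild-type mice, with 9.19, 9.13 and 9.11. EtOH arrays read 8.82, 8.75 and 8.57 and EA arrays 8.73, 8.67 and 8.69, all below control, while RSV arrays read 8.66, 8.86 and 9.15. The differences of -0.43 ± 0.11 (SE, adjusted p = 0.181 by limma) and -0.45 ± 0.11 (adjusted p = 0.172) did not pass over all probe sets, nor did -0.25 ± 0.11 (adjusted p = 0.505) with RSV. Foxa2 stayed within 9.002 and 9.54 over all 12 arrays, with differences from control of 0.14, 0.03 and 0.02.

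Onecut1 again held single arrays far from the others of their diet. It read 7.51, 7.94 and 7.89 on control, 9.73, 7.71 and 8.91 with EtOH, 8.27, 7.42 and 8.29 with EA and 8.41, 9.08 and 8.55 with RSV. EtOH therefore spanned 2.02 within 3 mice, and only RSV lay above control without overlap. The differences were 1.01 (interval -0.098 to 2.11), 0.21 and 0.90 (interval -0.2 to 2.0), and without EtOH replicate 1 that of EtOH was 0.53. EtOH replicate 1 was also the array of lowest Cebpa, with 10.10 against 10.91 and 11.05 in the other EtOH mice, and of the lowest Prox1 of its diet (9.12 against 9.73 and 9.50). Cebpa otherwise stayed between 10.71 and 11.05.

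Hnf4a in CAR-deficient mice read 12.36, 12.31 and 12.15 on control and 12.56, 12.44 and 12.44 with EtOH, which lay above control without overlap (0.21 ± 0.15, SE, adjusted p = 0.645 by limma). EA (12.47, 12.20 and 12.16) and RSV (12.26, 12.23 and 12.77) overlapped with control. The probe set 1421983_s_at differed by 0.29 with EtOH (adjusted p = 0.341). Prox1 read 9.67, 9.12 and 9.61 on control, 9.12, 9.73 and 9.50 with EtOH, 9.58, 9.71 and 9.74 with EA and 9.96, 9.54 and 10.33 with RSV. Its differences were -0.02, 0.21 and 0.48 (adjusted p = 0.544 for RSV by limma). The probe set 1457432_at differed by 0.20 with EtOH and 0.23 with EA, and its mean was 8.03 with RSV beside 7.58 on control. RSV replicate 3, the highest for Prox1, was also the highest of its diet for Hnf4a, Foxa1, Foxa3 and Cebpb. Without that array the RSV differences were 0.29 for Prox1, -0.38 for Foxa1, -0.87 for Foxa3 and -0.03 for Hnf4a. The 11 Kupffer cell markers had mean levels of 9.15 to 9.33 on control and 8.84 to 9.10 on the ethanol diets, with none called, and their part in these differences was not tested.

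Other transcription factors of liver were a list of 23 genes, of which 21 were measured. They gave calls at about the share of all lead probe sets and below the share of those not compressed. In wild-type mice 1 was higher and 1 lower than control with EtOH. EA gave 1 higher and 2 lower, and RSV gave 2 and 3, beside shares of 7.04%, 18% and 23.8% of all lead probe sets. Over those not compressed, as 17 of the 21 were in wild-type mice, the shares were 18.4%, 43% and 45.3%. Nr2f2, an orphan nuclear receptor of venous and mesenchymal cells, was lower in all 3 diets (-0.45, -0.33 and -0.46, lowest adjusted p = 0.00253 by limma). Klf15, a factor of amino acid catabolism and gluconeogenesis, was higher with EtOH (0.45, adjusted p = 0.0451) and RSV (0.60, adjusted p = 0.00482). Creb3l3, a factor of the fasted liver that controls triglyceride metabolism, was higher with EA (0.30, adjusted p = 0.000684) and RSV (0.15), and EA exceeded EtOH by 0.20 (adjusted p = 0.0284). Atf5 was lower with EA (-0.46) and RSV (-0.36), and Hhex, an early liver homeobox factor, with RSV (-1.16, adjusted p = 0.0492). The median difference of the list was 0.000234 with EtOH, -0.00013 with EA and 1.27e-06 with RSV, and none was called in CAR-deficient mice.

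Among 27 genes that these factors are known to control in liver, 24 were measured. With EtOH 0 were higher and 1 lower, which was Apoa1 (-0.08, adjusted p = 0.0348 by limma), a major protein of HDL. EA gave 4 higher and 5 lower, and RSV gave 3 and 4. The shares of all lead probe sets were 7.04% (EtOH), 18% (EA) and 23.8% (RSV). Over those not compressed, as 17 of the 24 were in wild-type mice, they were 18.4%, 43% and 45.3%. These counts thus say nothing particular about the list. G6pc, the last enzyme of glucose release and a known target of HNF4A and the forkhead factors, was lower with EA (-1.85, adjusted p = 0.0176) and RSV (-1.46, adjusted p = 0.0409). Gys2, the liver glycogen synthase, was higher with EA (0.49) and RSV (0.29), and EA exceeded EtOH by 0.69 (adjusted p = 0.00566). Fgb, a fibrinogen chain, was lower with both (-0.32 and -0.30), Cyp8b1, which makes cholic acid, was higher with EA (0.72, adjusted p = 0.0478), and Cps1, the entry enzyme of the urea cycle, was higher with RSV (0.30, adjusted p = 0.00167). The median differences of the list were -3.89e-05, 2.36e-05 and 3.23e-05. Of 6 fetal and progenitor genes 5 were measured, all compressed in both genotypes and none called. In CAR-deficient mice no gene of either list was called.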

How the data were processed

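Liver RNA of each mouse was hybridized to an Affymetrix mouse genome array, and the authors summarised the probes by DFW, as log2 values that they deposited for the 28 arrays. The wild-type arrays had medians of 6.693 to 6.695 and the CAR-deficient arrays 6.884 to 6.891, and 26 probe sets were blank on all CAR-deficient arrays, so the genotypes were taken as separate summaries and analysed apart. Of 45101 probe sets, 64 controls were set aside, which left 45037 (wild-type) and 45011 (CAR-deficient). In the annotation supplied with the platform 34945 named 1 gene, 932 several and 9160 none. Groups and replicate numbers came from the sample titles. The number of arrays limits the precision. Pearson's r between arrays was 0.9877 to 0.9993 in wild-type and 0.9788 to 0.9984 in CAR-deficient mice.

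Diets were compared within a genotype by limma 3.58.1 (lmFit, eBayes) in R 4.3.3 on all 4 diets, with p-values adjusted by Benjamini-Hochberg over every probe set tested, called under 0.05. Other values were computed in Python 3.11.15 with scipy 1.17.1. Alternatives were the rank product of the study's methods (FDR of 0.05, 50 permutations), limma without moderation, quantile normalization, 2 filters, a replicate block, the 2 groups alone, the probe set of highest SD and leaving out each array of the 2 diets compared. Correlations with the replicate number removed were added after seeing the data. The code was tested on simulated data. The factors and the gene lists were chosen with earlier results of these data known. All 8 factors are named, from each other list at most 4 called genes of largest difference per comparison, with the marker genes Adgre1, Timd4, Marco, Cd68 and Pdpn named in addition after their values were seen, and for likeness the 3 genes of highest r. Motif letters were searched in the RefSeq promoter table, in which all 8 factors matched. Deviations of arrays with the same replicate number correlated above 0.1 in every pair in only 2 comparisons, which were wild-type EA against control (0.568, 0.303, 0.157 and 0.277) and CAR-deficient EtOH against control (0.41, 0.288 and 0.333). The pairing rests on these correlations alone, and the block changed no call of a factor there.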

Additional observations from a re-analysis of the deposited data

Results flagged for a closer look

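Onecut1 in control replicate 1 of wild-type mice stood apart from the other 3 control arrays, with 10.31 against 7.09 to 7.23 for the lead probe set (the gap to the nearest was 0.956 of the range of the group, above the critical value of Dixon's test). The second probe set showed it as well, with 9.32 against 6.72 to 6.86 (0.943 of the range). Of 60 groups of 4 arrays examined over the 15 probe sets, 2 had such an array (3.33%), where chance gives about 5%, and both come from the same mouse and gene. The groups of 3 CAR-deficient arrays were not examined in this way.

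The difference of the Prox1 lead probe set had opposite signs in the 2 genotypes in 3 of 6 comparisons, with every array of the first diet on the corresponding side of the mean of the other. EA against control gave -0.19 in wild-type and 0.21 in CAR-deficient mice, RSV against control -0.53 and 0.48, and EA against RSV 0.34 and -0.27. In the other comparisons the signs of the lead were the same, with -0.58 and -0.02 for EtOH against control, 0.39 and 0.23 for EA against EtOH and 0.05 and 0.50 for RSV against EtOH. The probe set 1457432_at did not share this. There EtOH against control gave -0.25 in wild-type and 0.20 in CAR-deficient mice. RSV against EtOH gave -0.02 in wild-type mice, while the CAR-deficient means were 8.03 with RSV and 7.78 with EtOH. None of these differences was called by limma within a genotype, and the difference between genotypes was not tested, since the genotypes were summarised apart.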

How the results depend on the processing

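Of the alternatives to the 96 differences of single factors, 1406 kept the side of the threshold, 31 brought a difference past it and 3 took one below it. No called difference reversed. The direction was not checked where a difference was called in neither setting, and there it could change. In wild-type mice Hnf4a with EA against EtOH was -0.044 with the lead probe set and 0.27 with 1427000_at, its probe set of highest SD. In wild-type mice the number of factors called for EtOH against control, 2 of 8, became 1 with a replicate block (in which EtOH replicate 5 has no partner), 0 with only the 2 groups compared and 5 by the rank product at an FDR of 0.05, which called 2565 of 45037 probe sets there. By the rank product it became 4 for EA against control, 6 for RSV against control, 4 for EA against EtOH, 4 for RSV against EtOH and 5 for EA against RSV, with 3908, 3655, 2575, 2035 and 1541 probe sets called. In CAR-deficient mice the rank product gave 2 for EtOH, 2 for EA and 2 for RSV against control and 1 for EA against RSV, in place of 0, with 926, 1340, 1027 and 49 of 45011 called. The cause was not tested. Moderation, quantile normalization, both filters and the choice of probe set changed no count by more than 1.5 times. Beyond the calls named in the results, the replicate block changed no call of a factor. The number of mice, 4 or 3 per diet, and the rescaling by DFW limit what can be said of size.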
